A study of Homo sapiens with 8 samples.

Results

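NPC1, NPC2, the mucolipin channels MCOLN1, MCOLN2 and MCOLN3, and the two-pore channels TPCN1 and TPCN2 were followed through every library of the study. They were taken by symbol from the gene count table, and all 7 symbols were found among its 19447. The cells were K562, an established human line from a chronic myeloid leukaemia, labelled wild type. Lip-1 was given at 10 µM in 3 libraries (replicates 2 to 4) and at 20 µM in 1 (replicate 1), and 4 untreated libraries (numbers 1 to 4) served as controls. Treated libraries are labelled Day 1 (24 h) and controls Day 0, so the compound cannot be told apart from the day of sampling. The labels name no vehicle and do not spell out Lip-1. The abbreviation usually stands for liproxstatin-1, which blocks lipid peroxidation and thereby ferroptosis. All libraries are from a single cell line in bulk culture, and nothing in the labels says that replicates were separate cultures, so p-values measure the spread between these libraries, which may be technical.

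Late endosomes and lysosomes receive cholesterol from low-density lipoprotein, and its exit depends on a pair of proteins. NPC2, a soluble protein of the lumen, binds free cholesterol and passes it to NPC1 in the limiting membrane, and loss of either gene causes Niemann-Pick disease type C, in which cholesterol is stored in lysosomes. The same membrane holds cation channels gated by the phosphoinositide PI(3,5)P2. The mucolipins, or TRPML channels, release calcium and other cations from the lysosome, and loss of MCOLN1 (TRPML1) causes mucolipidosis type IV. The two-pore channels TPCN1 and TPCN2 carry sodium and calcium and take part in calcium signalling by NAADP. MCOLN1 is a known target of TFEB, a factor of the MiT/TFE family that binds the CLEAR element, a sequence found in front of many lysosomal genes.

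Promoter windows from RefSeq (build GRCh38.p14), each from 250 bases before to 50 after the annotated start, were matched to 6 of the 7 genes, in 8 windows. MCOLN2 was not matched. Those of the 4 genes whose RNA differed in at least 1 comparison below are printed 5′ to 3′ on the gene's own strand, with CACGTG, the core of the CLEAR element, in capitals. NPC2 has 2 windows and the upstream one is shown. The windows are MCOLN1 chr19:7522374-7522673 (plus strand), MCOLN3 chr1:85048451-85048750 (minus strand), NPC1 chr18:23586457-23586756 (minus strand) and NPC2 chr14:74493463-74493762 (minus strand).
MCOLN1: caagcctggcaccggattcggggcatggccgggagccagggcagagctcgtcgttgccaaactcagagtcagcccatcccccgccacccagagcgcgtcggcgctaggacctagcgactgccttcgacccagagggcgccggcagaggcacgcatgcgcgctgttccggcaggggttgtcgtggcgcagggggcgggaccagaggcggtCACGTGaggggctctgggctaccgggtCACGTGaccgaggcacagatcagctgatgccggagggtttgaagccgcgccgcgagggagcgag
MCOLN3: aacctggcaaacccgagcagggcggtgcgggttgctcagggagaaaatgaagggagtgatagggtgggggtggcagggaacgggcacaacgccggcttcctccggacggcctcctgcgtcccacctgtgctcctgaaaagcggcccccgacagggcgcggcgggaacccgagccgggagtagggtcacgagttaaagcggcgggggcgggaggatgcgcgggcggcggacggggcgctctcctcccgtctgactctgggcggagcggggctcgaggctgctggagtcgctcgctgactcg
NPC1: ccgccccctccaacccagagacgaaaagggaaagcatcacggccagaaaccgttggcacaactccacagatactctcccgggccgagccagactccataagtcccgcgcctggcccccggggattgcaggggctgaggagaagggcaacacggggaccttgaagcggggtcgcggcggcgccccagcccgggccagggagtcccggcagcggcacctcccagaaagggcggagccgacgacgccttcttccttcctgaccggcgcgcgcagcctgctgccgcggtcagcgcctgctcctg
NPC2: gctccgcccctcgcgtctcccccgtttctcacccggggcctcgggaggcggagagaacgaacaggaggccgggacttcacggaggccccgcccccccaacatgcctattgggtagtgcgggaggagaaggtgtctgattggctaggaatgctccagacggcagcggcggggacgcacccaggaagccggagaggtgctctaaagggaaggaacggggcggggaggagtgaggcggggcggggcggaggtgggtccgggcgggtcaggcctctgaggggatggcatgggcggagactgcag
The MCOLN1 window held CACGTG at 2 places, beginning 41 and 14 bases before the annotated start. Both lay within the longer TCACGTGA, so these are nested matches and not separate ones. Of 35116 promoter windows in the table, 7.26% held CACGTG and 0.98% held TCACGTGA. Both motifs read the same on both strands. The letters of a sterol regulatory element core, CACCCCAC, searched on both strands, were in 2.79% of windows. None of the 8 windows held CACCCCAC, and the other 7 windows held no CACGTG. A match is a run of letters in a window, and its absence concerns these letters in these windows only.

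Levels are given as CPM, counts per 1000000 counts of the library, scaled by each library's TMM factor, and serve to compare a gene between libraries. Total counts ran from 71151415 to 141307169 per library. Of 10 erythroid markers that define K562, 10 averaged at least 1 CPM, and their summed level was 3114 to 5107 CPM in treated libraries and 5245 to 8229 CPM in controls. Of 7 lymphoid markers 1 averaged at least 1 CPM (CD3D, 14.5 CPM), and so did 1 of 8 of monocytes and granulocytes (LYZ, 55.8 CPM, with ELANE at 0 in every library) and 3 of 7 epithelial and fibroblast markers (led by EPCAM, 36.1 CPM). Their sums overlapped between treated libraries and controls, at 6.19 to 22.6 against 14.8 to 17.6 CPM, 19.1 to 98.5 against 19.6 to 126 CPM, and 27.3 to 42.6 against 32.3 to 61.4 CPM in the order named. The erythroid sums did not overlap, and their part in the results below was not tested. In bulk RNA, fewer cells of a type and less RNA per cell cannot be told apart.

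Both sterol exporters and MCOLN3 were higher in Lip-1-treated cells. NPC2 was 3.82-fold higher, NPC1 1.95-fold and MCOLN3 9.88-fold, with every treated library above every control for each of them. MCOLN1 was higher in the single 20 µM library than at 10 µM, a call lost with the replicate number as a block (adjusted p = 0.123), and the two-pore channels did not pass the test in any comparison. In edgeR's quasi-likelihood test with Benjamini-Hochberg adjustment over all genes and a threshold of 0.05, 3 of the 6 genes tested were called in treated cells against controls, all higher. Of all 13101 genes tested 14.2% were called, and 7.47% were called higher. At 10 µM against control, a comparison that uses the same controls and 10 µM libraries, 3 of 6 were called higher. Of 14857 genes 19.1% were called in either direction and 9.34% called higher. With the replicate number as a block, 2815 genes (21.5%) in place of 1855 were called in treated cells against controls, and 4657 (31.3%) in place of 2842 at 10 µM. For 20 µM against 10 µM, 2 of 6 were called higher, against 26.3% called and 11.7% called higher, and with the block 1 of 6 (NPC1), against 19.1% of all genes. That contrast sets a single 20 µM library, assumed to vary like the others, against 3 libraries, and has no replicate check at the higher dose. The groups did not overlap for 3 of the 6 genes tested, against 28.0% of all genes. The median log2 fold change of the 6 genes in treated cells against controls was 0.66, and that of all genes tested was 0.08.

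**Figure D1:**
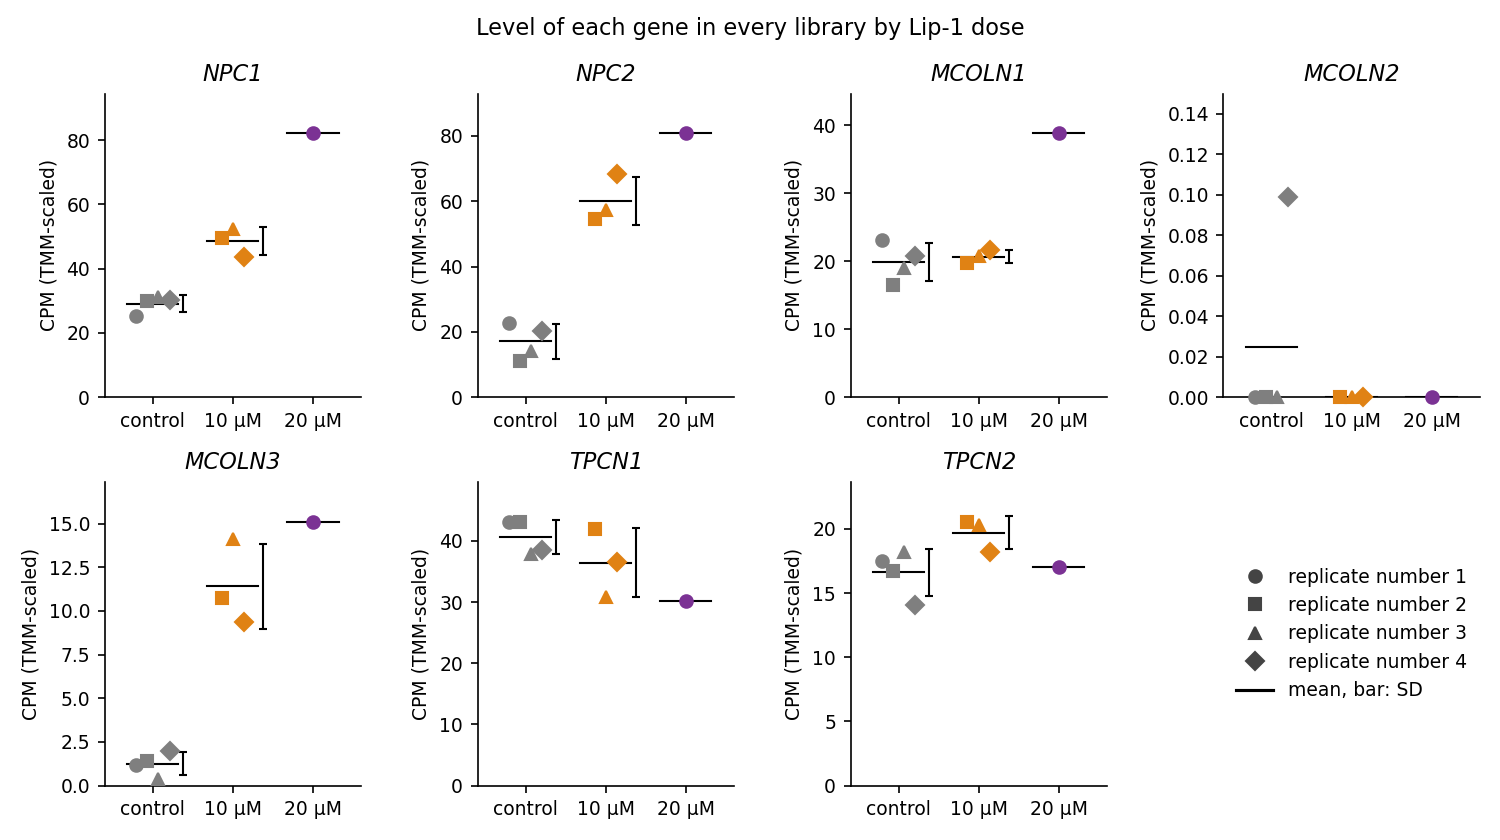
TMM-scaled CPM of each of the 7 genes (vertical axes from 0) in every library, by dose from control through 10 µM to 20 µM. Points are libraries, with a symbol for each replicate number, lines are group means and bars SD (not drawn for MCOLN2 or for the single 20 µM library). NPC1, NPC2 and MCOLN3 lie above every control at both doses, while MCOLN1 stands apart only in the 20 µM library.

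NPC2 encodes the luminal cholesterol carrier and lies on chromosome 14 (GENCODE 29, GRCh38, chr14:74476192-74494177, minus strand, ENSG00000119655.10). Controls 1 to 4 had 22.6, 11.1, 14.2 and 20.4 CPM, the 10 µM libraries 54.7, 57.2 and 68.3 CPM, and the 20 µM library 80.8 CPM. The lowest treated library had more NPC2 RNA than the highest control. Treated cells averaged 65.3 ± 12.0 CPM (SD, n = 4) and controls 17.1 ± 5.37 CPM (SD, n = 4). The log2 fold change was 1.93 (SE 0.25, 95% interval 1.38 to 2.49, edgeR adjusted p = 0.00858), and at 10 µM against control it was 1.81 (SE 0.23, adjusted p = 0.00219). From 10 to 20 µM it was 0.41 with a 95% interval of -0.36 to 1.18 (edgeR adjusted p = 0.412), so a difference between the doses was not resolved. With the replicate block this last value was -0.20. Since the groups did not overlap, any pairing gives more NPC2 RNA in the treated library. For pairs of the same number the ratios were 3.57, 4.94, 4.04 and 3.35 for replicates 1 to 4. NPC2 passed the test of treated cells against controls in 16 of 16 alternative analyses.

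NPC1, the membrane protein that takes over cholesterol from NPC2, lies on chromosome 18 (chr18:23506184-23586898, minus strand, ENSG00000141458.12). Controls 1 to 4 had 25.1, 30.0, 31.3 and 30.3 CPM, the 10 µM libraries 49.7, 52.2 and 43.7 CPM, and the 20 µM library 82.2 CPM. Controls were close to each other, the 10 µM libraries lay above all of them, and the 20 µM library lay above all 10 µM libraries. Treated cells averaged 57.0 ± 17.2 CPM (SD, n = 4) and controls 29.2 ± 2.74 CPM (SD, n = 4), a log2 fold change of 0.97 (SE 0.20, 95% interval 0.51 to 1.42, edgeR adjusted p = 0.0231). Ratios of NPC1 within pairs were 3.27, 1.66, 1.67 and 1.44 for replicates 1 to 4, the widest being that of the 20 µM library. Leaving out any single control ended that call, with log2 fold changes of 0.90, 0.98, 1.00 and 0.98 and edgeR adjusted p-values of 0.0609, 0.0710, 0.0765 and 0.0640 without controls 1, 2, 3 and 4. With the dose kept as its own level, the 10 µM libraries were higher than controls by 0.73 on the log2 scale (SE 0.11, 95% interval 0.48 to 0.99, adjusted p = 0.00414), a call that held in 16 of 16 alternatives. The 20 µM library was higher than the 10 µM libraries by 0.74 (SE 0.17, 95% interval 0.37 to 1.12, edgeR adjusted p = 0.0110), which held in 15 of 15.

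Both exporters share exon sequence with a neighbour on the opposite strand, and the use of strand in counting is not given in the sources used here. NPC1 shares 604 exon bases with RMC1, a partner of the RAB7 exchange factor MON1-CCZ1, which averaged 43.4 ± 9.85 CPM in treated cells and 35.1 ± 3.56 CPM in controls (SD, n = 4 each; log2 fold change 0.31, edgeR adjusted p = 0.236). NPC2 shares 103 with ISCA2, an iron-sulphur cluster assembly factor, at 14.5 ± 3.12 CPM in treated cells and 13.8 ± 1.32 CPM in controls (SD, n = 4 each; 0.07, edgeR adjusted p = 0.826). Neither neighbour passed the test. Without strand, reads over these shared bases cannot be assigned to one gene of a pair.

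Among the mucolipins, MCOLN3 (TRPML3), a calcium-permeable channel of endosomes and lysosomes known from the varitint-waddler mouse, changed most. It lies on chromosome 1 (chr1:85018082-85048499, minus strand, ENSG00000055732.12). Its raw counts were 169, 110, 28 and 179 in controls 1 to 4, 804, 1023 and 737 at 10 µM, and 1941 at 20 µM. Scaled levels were 1.20, 1.43, 0.39 and 1.97 CPM in controls, 10.8, 14.1 and 9.35 CPM at 10 µM, and 15.1 CPM at 20 µM. The gene was low in controls, with a spread of several fold among them, and the groups stood far apart. Treated cells averaged 12.3 ± 2.73 CPM and controls 1.25 ± 0.66 CPM (SD, n = 4 each). The log2 fold change was 3.30 (SE 0.46, 95% interval 2.27 to 4.34, edgeR adjusted p = 0.00936), which is a fold of 9.88 with an interval of 4.83 to 20.2. By size it was number 79 among the 979 genes called higher. At 10 µM against control it was 3.19 (SE 0.45, edgeR adjusted p = 0.00307), number 43 among 1387. From 10 to 20 µM the value was 0.39 (95% interval -1.04 to 1.82, edgeR adjusted p = 0.693), too wide to place the doses in order. Ratios within pairs were 12.6, 7.55, 36.0 and 4.74 for replicates 1 to 4, the highest of them against control 3, which had 28 counts. The call against controls held in 16 of 16 alternatives, with log2 fold changes of 3.01 to 3.61.

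MCOLN1 (TRPML1), the main lysosomal mucolipin, lies on chromosome 19 (chr19:7522626-7534009, plus strand, ENSG00000090674.15) and is the gene with both CACGTG matches printed above. Controls 1 to 4 had 23.2, 16.5, 19.1 and 20.7 CPM, the 10 µM libraries 19.7, 20.7 and 21.6 CPM, and the 20 µM library 38.9 CPM. The 10 µM libraries lay within the range of the controls, and the 20 µM library alone lay above it. Treated cells averaged 25.2 ± 9.13 CPM and controls 19.9 ± 2.80 CPM (SD, n = 4 each), a log2 fold change of 0.35 (95% interval -0.20 to 0.89, edgeR adjusted p = 0.342), and without the 20 µM library it was 0.05. At 10 µM against control it was 0.05 (95% interval -0.26 to 0.37, edgeR adjusted p = 0.833), and -0.025 without control 2. The 20 µM library was 1.86-fold higher than the 10 µM libraries (log2 0.89, SE 0.20, 95% interval 0.44 to 1.35, edgeR adjusted p = 0.0117). With the replicate block that call was lost, at 0.58 (adjusted p = 0.123). Control 1, which shares its number with the 20 µM library, had the highest MCOLN1 level of the controls, and the ratio within that pair was 1.68, against 1.19, 1.09 and 1.04 in pairs 2 to 4. MCOLN1 shares 6 exon bases with PNPLA6 on the same strand (log2 fold change 0.26 in treated cells against controls, edgeR adjusted p = 0.218).

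MCOLN2 (TRPML2), known mainly from lymphoid and myeloid cells, lies next to MCOLN3 (chr1:84925583-84997113, minus strand, ENSG00000153898.12), with 20968 bases between the genes. It had 0 counts in all 4 treated libraries and in controls 1 to 3, and 9 counts (0.099 CPM) in control 4. A count of 0 allows up to 0.021 to 0.042 CPM in these libraries (3 counts, counting error only), so MCOLN2 was at or near the limit of detection throughout. That bound takes 1 count as 1 read, which the spacing of low values in this table puts in doubt. It did not pass the filter on low counts, and with a single library above 0 no test between the groups is informative.

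The other genes within 300000 bases of MCOLN3 were examined for the same direction. Besides MCOLN2, the neighbours LPAR3, WDR63 and DDAH1 averaged under 1 CPM in both groups, WDR63 lying across MCOLN3 on the other strand at no more than 0.062 CPM in any library. SYDE2 (log2 fold change -0.17, edgeR adjusted p = 0.568), C1orf52 (-0.23, adjusted p = 0.291) and BCL10 (0.61, adjusted p = 0.124) did not pass the test in treated cells against controls. MCOLN3 was thus the one gene of this window called in that comparison.

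The two-pore channels were expressed and showed no resolved difference. TPCN1 (chr12:113221050-113298585, plus strand, ENSG00000186815.12), found on endosomes and lysosomes, had 43.1, 43.0, 37.9 and 38.5 CPM in controls 1 to 4, 42.0, 30.8 and 36.5 CPM at 10 µM, and 30.2 CPM at 20 µM. Of the 4 treated libraries 3 lay below every control, and the groups overlapped through the 10 µM replicate 2. Treated cells averaged 34.9 ± 5.52 CPM and controls 40.6 ± 2.83 CPM (SD, n = 4 each), a log2 fold change of -0.22 (SE 0.14, 95% interval -0.54 to 0.10, edgeR adjusted p = 0.296). Each treated library was below the control of its number, at ratios of 0.70, 0.98, 0.81 and 0.95 for replicates 1 to 4.

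TPCN2 (chr11:69048897-69162440, plus strand, ENSG00000162341.16), the more strictly lysosomal of the pair, had 17.5, 16.7, 18.2 and 14.1 CPM in controls 1 to 4, 20.6, 20.3 and 18.2 CPM at 10 µM, and 17.0 CPM at 20 µM. Only 2 of 4 treated libraries lay above every control. Treated cells averaged 19.0 ± 1.70 CPM and controls 16.6 ± 1.81 CPM (SD, n = 4 each), a log2 fold change of 0.20 (SE 0.15, 95% interval -0.14 to 0.53, edgeR adjusted p = 0.378). These intervals limit a change in treated cells to within 0.54 below and 0.10 above control for TPCN1, and to 0.14 below and 0.53 above for TPCN2, on the log2 scale. In CPM without the TMM factor, 4 of 4 treated libraries lay above every control for TPCN2, so its separation depends on the scaling. In those unscaled values the groups were separate for 28.6% of all 13101 genes tested. From 10 to 20 µM the log2 fold changes were -0.29 for TPCN1 (edgeR adjusted p = 0.306) and -0.23 for TPCN2 (adjusted p = 0.466). TPCN1 shares 45 exon bases with IQCD on the opposite strand, which had at most 0.37 CPM in any library.

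**Figure D2:**
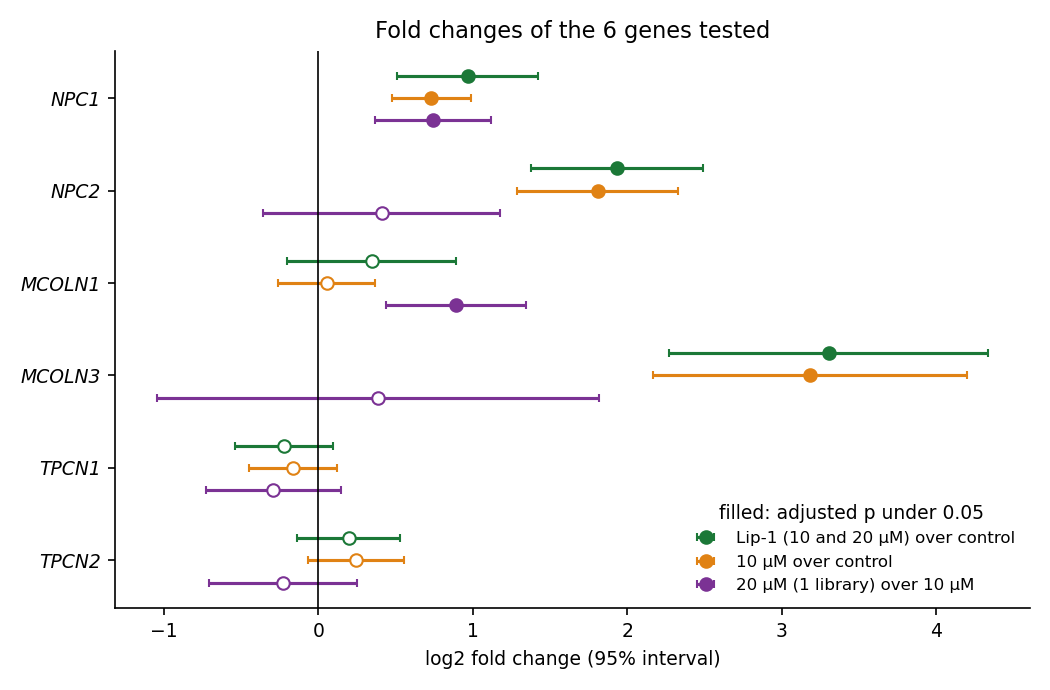
Log2 fold change (horizontal axis) with its 95% interval for the 6 genes tested, in treated cells against controls, 10 µM against control and 20 µM against 10 µM. Filled points passed an adjusted p of 0.05 in edgeR. NPC2 and MCOLN3 lie far to the right against controls and have wide intervals between doses, MCOLN1 is filled between doses alone, and every interval of TPCN1 and TPCN2 includes 0.

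Levels of different genes were set side by side per length, as counts per kilobase of exon scaled to sum to 1000000 per library. They carry no TMM factor and serve to compare genes within a library or group, not a gene between groups. In controls these per-length levels averaged 24.8 ± 8.29 for NPC2, 20.0 ± 3.14 for MCOLN1, 18.5 ± 1.77 for TPCN1, 11.4 ± 0.98 for NPC1, 6.40 ± 0.55 for TPCN2, 0.76 ± 0.41 for MCOLN3 and 0.029 ± 0.059 for MCOLN2 (SD, n = 4). The first 3 did not differ beyond their spread. At 10 µM the order was NPC2 at 98.9 ± 15.6, MCOLN1 at 23.6 ± 1.91, NPC1 at 21.6 ± 1.34, TPCN1 at 18.8 ± 2.81, TPCN2 at 8.63 ± 0.27 and MCOLN3 at 7.75 ± 1.52 (SD, n = 3), with MCOLN2 at 0. There NPC2 stood apart from all others, and the neighbours MCOLN1 and NPC1, NPC1 and TPCN1, and TPCN2 and MCOLN3 were within their spread. At 20 µM the per-length levels were 131 for NPC2, 43.9 for MCOLN1, 36.4 for NPC1, 15.4 for TPCN1, 10.2 for MCOLN3 and 7.40 for TPCN2. NPC1 ranked above TPCN1 in each treated library and below it in each control. With the length of the longest transcript in place of all exons, NPC1 and MCOLN1 changed places at 10 µM, at 29.3 and 28.7.

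Ratios of related genes, taken within a library, are descriptions with no test. The per-length ratio of NPC2 to NPC1 averaged 4.36 ± 0.95 in treated libraries and 2.20 ± 0.88 in controls (SD, n = 4 each). The lowest treated ratio was 3.61 and the highest control ratio 3.31, in control 1. The ratio of MCOLN3 to MCOLN1 averaged 0.306 ± 0.078 in treated libraries and 0.038 ± 0.020 in controls (SD, n = 4 each). TPCN1 exceeded TPCN2 in every library, by 2.16 ± 0.28 in treated libraries and 2.90 ± 0.33 in controls (SD, n = 4 each). These ranges, 1.79 to 2.40 in treated libraries and 2.45 to 3.22 in controls, did not overlap, by a narrow margin. Neither two-pore channel was called in any comparison. How often the ratios of other gene pairs separate was not examined. Of single genes tested, 28.0% had separate groups in TMM-scaled CPM.

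**Figure D3:**
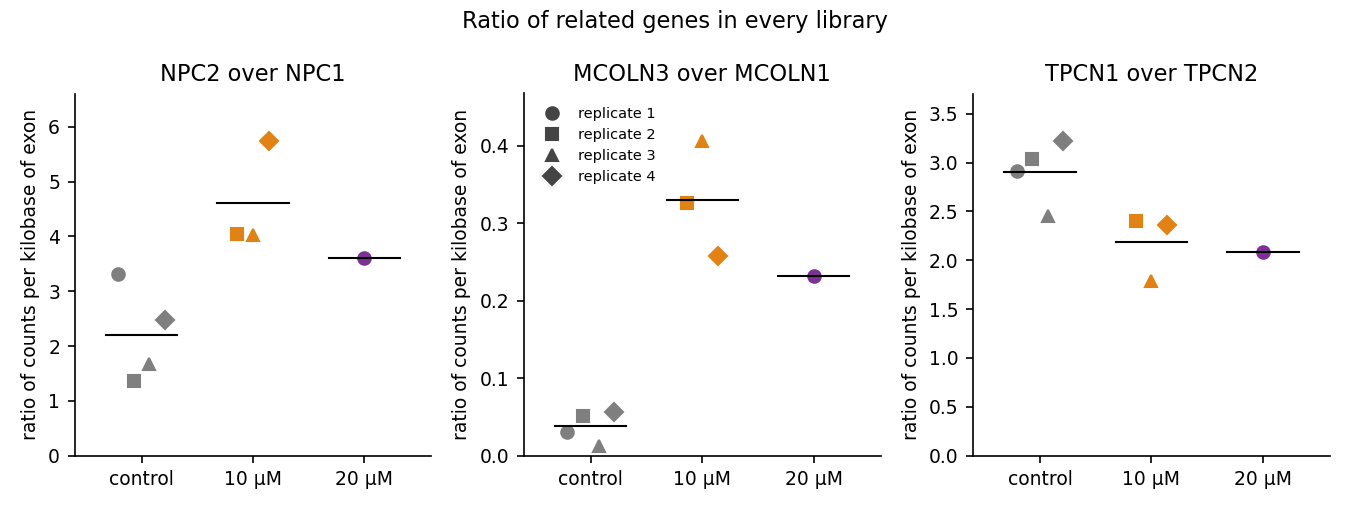
Ratio of counts per kilobase of exon (vertical axes from 0) for NPC2 over NPC1, MCOLN3 over MCOLN1 and TPCN1 over TPCN2, in every library by dose from control through 10 µM to 20 µM. Points are libraries and lines group means. The NPC2 over NPC1 and MCOLN3 over MCOLN1 ratios are higher in all treated libraries, and the TPCN1 over TPCN2 ratio is lower by a narrow margin. No ratio was tested.

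The libraries carry names of 2 kinds in the labels, beginning with a letter or with a digit, each kind holding 2 treated libraries and 2 controls. The labels do not say what the kinds are. Log2 ratios of mean CPM in treated libraries to that in controls were, among libraries named by letters and by digits, 1.18 and 0.74 for NPC1, 1.79 and 2.15 for NPC2, 2.95 and 3.77 for MCOLN3, and 0.46 and 0.18 for MCOLN1. They were -0.29 and -0.15 for TPCN1 and 0.16 and 0.23 for TPCN2. All 6 genes kept their direction in both kinds. For NPC1, NPC2 and MCOLN3 this follows from every treated library lying above every control, and for the others it was not tested. The 20 µM library is among those named by letters. It had 38.9 CPM of MCOLN1, against 21.6 CPM in the 10 µM library named by letters.

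Across the 8 libraries, Pearson's r of log2 CPM was 0.92 between NPC2 and MCOLN3, 0.85 between NPC1 and NPC2, 0.85 between NPC1 and MCOLN3, and -0.78 between NPC1 and TPCN1. Between TPCN1 and TPCN2 it was -0.15. These values are descriptions over libraries that fall into treated and control groups. Of 13100 other genes, those with the pattern most like NPC1 were MAVS (r = 0.99), TRIB1 (0.99) and N4BP2L1 (0.99). For NPC2 they were CERS4 (0.99), KCTD11 (0.99) and ANXA9 (0.99), and for MCOLN3 GJA9 (0.98), PHF21A (0.98) and ZNF846 (0.98). For MCOLN1 they were MYO1C (0.99), CREB3 (0.99) and DLG5 (0.99), for TPCN1 STK11IP (0.95), SPACA6 (0.94) and HOXA5 (0.94), and for TPCN2 MYO1E (0.97), HYAL3 (0.97) and TRAF3IP2 (0.96).

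Around the exporters, 31 other genes of sterol egress and sensing were listed. In treated cells against controls 3 of 22 tested passed (13.6%), all higher, against 14.2% of all genes called and 7.47% called higher. They were LAMP2, a membrane protein of the lysosome, and the sterol-binding proteins OSBPL2 and OSBPL5. With the block 6 of 22 passed, all higher, against 21.5% of all genes. LAMP2 differed by 0.78 on the log2 scale (edgeR adjusted p = 0.0294), OSBPL2 by 0.70 (adjusted p = 0.0365) and OSBPL5 by 0.74 (adjusted p = 0.0236). The median of the list was 0.30, against 0.08 for all genes. SCAP, the escort of the sterol regulatory factors, had a log2 fold change of -0.26 (edgeR adjusted p = 0.216). LIPA, the lysosomal acid lipase that frees the cholesterol NPC2 binds, averaged 0.102 ± 0.162 CPM in controls (SD, n = 4), was at 0 at 10 µM and at 0.42 CPM at 20 µM, and was too low to test in treated cells against controls.

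Of 43 other lysosomal channels and transporters tested, 10 (23.3%) were called in treated cells against controls, all higher. Over all genes 14.2% were called and 7.47% were called higher. The list median was 0.37. Leaving out 1 library took the 10 calls to 0 (control 3), 2 (control 2), 3 (control 4), 5 (10 µM replicate 4) or 6 (control 1). In that order the list shares were 0.00%, 4.55%, 6.82%, 11.4% and 14.0%, against 0.475%, 1.11%, 2.35%, 2.33% and 4.26% of all genes. Other single libraries left 7 to 12 (15.9% to 27.9%, against 6.06% to 22.9% of all genes). The chloride-proton exchangers CLCN3, CLCN6 and CLCN7 were higher by 1.06, 0.87 and 1.08 on the log2 scale (edgeR adjusted p = 0.0168, 0.0124 and 0.0191), and SLC17A5, the sialic acid exporter, by 1.28 (adjusted p = 0.00936). At 10 µM against control 11 of 44 passed (25.0%, against 19.1% of all genes), and with the block 18 of 44 (40.9%, against 31.3%). TMEM175, a potassium and proton channel, averaged 13.7 ± 3.83 CPM in controls (SD, n = 4), 18.5 ± 4.11 CPM at 10 µM (SD, n = 3) and 28.97 CPM at 20 µM. It was called with the block alone (0.62, edgeR adjusted p = 0.139, against 0.61, adjusted p = 0.0370, with the block).

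Among 28 lipid kinases, ligands and sensors of the channels tested, 5 were called higher and 1 lower in treated cells against controls (21.4%, against 14.2% of all genes). PIKFYVE, the kinase that makes PI(3,5)P2, was higher by 0.63 on the log2 scale (edgeR adjusted p = 0.0356) and PIK3C3, which makes its precursor, by 0.52 (adjusted p = 0.0208). LSM12, an NAADP receptor of the two-pore channels, was lower, at -0.53 (edgeR adjusted p = 0.0384). LRRK2, a kinase linked to TPCN2 in earlier work, was higher by 2.06 (edgeR adjusted p = 0.0312) at a low level of 0.593 ± 0.238 CPM in controls (SD, n = 4). The list median was 0.09, close to 0.08 for all genes. At 10 µM against control 9 of 28 passed (32.1%, against 19.1% of all genes), and 14 of 28 with the block, against 31.3% of all genes.

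Of the MiT/TFE factors, TFEB averaged 3.83 ± 1.32 CPM in controls (SD, n = 4), 3.52 ± 0.68 CPM at 10 µM (SD, n = 3) and 7.20 CPM at 20 µM, and was not called in any comparison. TFE3 stood at 41.1 ± 5.05 CPM in controls (SD, n = 4), 56.1 ± 6.61 CPM at 10 µM (SD, n = 3) and 162 CPM at 20 µM. TFE3 was called higher at 10 µM against control, by 0.44 on the log2 scale (edgeR adjusted p = 0.0396), as in 11 of 16 alternatives. In treated cells against controls it was not called (1.01, edgeR adjusted p = 0.0897). The 20 µM library was higher than the 10 µM libraries by 1.51 on the log2 scale for TFE3 (edgeR adjusted p = 0.000806) and differed by -1.12 for MITF (adjusted p = 0.00537). Of 30 genes of these factors and of mTORC1 at the lysosome, 4 were called higher and 3 lower in treated cells against controls (23.3%, against 14.2% of all genes). With DESeq2 13 of 30 were called (43.3%, against 25.9% of all genes with DESeq2). RRAGD, a lysosomal GTPase, was higher by 1.83, FNIP1 by 1.28 and FNIP2 by 1.43 (edgeR adjusted p = 0.0125, 0.0309 and 0.0302), and RPTOR, a subunit of mTORC1, differed by -0.52 (adjusted p = 0.0208).

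Of 29 genes that carry soluble lysosomal proteins such as NPC2 to their place, 2 were called higher and 2 lower in treated cells against controls, 13.8% of the list and close to the 14.2% of all genes, with a list median of 0.11. The mannose 6-phosphate receptors were not called in that comparison, M6PR at -0.16 on the log2 scale (edgeR adjusted p = 0.489) and IGF2R at 0.45 (adjusted p = 0.0738). With DESeq2 and with upper-quartile scaling IGF2R was called there. In the single 20 µM library against 10 µM, the log2 fold changes were -0.60 for M6PR and 0.47 for IGF2R. VPS39 and VPS41 of the HOPS tethering complex were higher by 0.61 and 0.55 (edgeR adjusted p = 0.0302 and 0.0296), and CLN6, an export factor of the endoplasmic reticulum, differed by -0.87 (adjusted p = 0.0382). AP1B1, an adaptor subunit, was called at -0.51 (edgeR adjusted p = 0.0488) and not with the block (-0.53, adjusted p = 0.0557). In 20 µM against 10 µM, fewer genes passed with the block, 2841 in place of 3903 over all genes, 4 of 27 in place of 6 for sterol egress, 7 of 44 in place of 14 for channels and transporters, 3 of 28 in place of 7 for lipid kinases and sensors, 4 of 30 in place of 7 for MiT/TFE and mTORC1, and 6 of 29 in place of 9 for trafficking. Without control 3, the library whose absence cut the calls over all genes to 64, edgeR called 0 genes of each of the 5 lists in treated cells against controls, where 4 (sterol egress), 13 (channels and transporters), 9 (lipid kinases and sensors), 9 (MiT/TFE and mTORC1) and 7 (trafficking) had an unadjusted p under 0.05. Without any 1 of controls 1, 2 and 4 or of the 10 µM replicates 3 and 4, the lists other than channels and transporters kept 0 to 4 calls each. Over all genes 1.11% to 6.06% were called in those settings. Each of the 19 list genes named as called in treated cells against controls lost that call without at least 1 library. At 10 µM against control all 19 were called in the same direction. That comparison uses the same 4 controls and the same 3 libraries at 10 µM, so it is not an independent check.

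**Figure D4:**
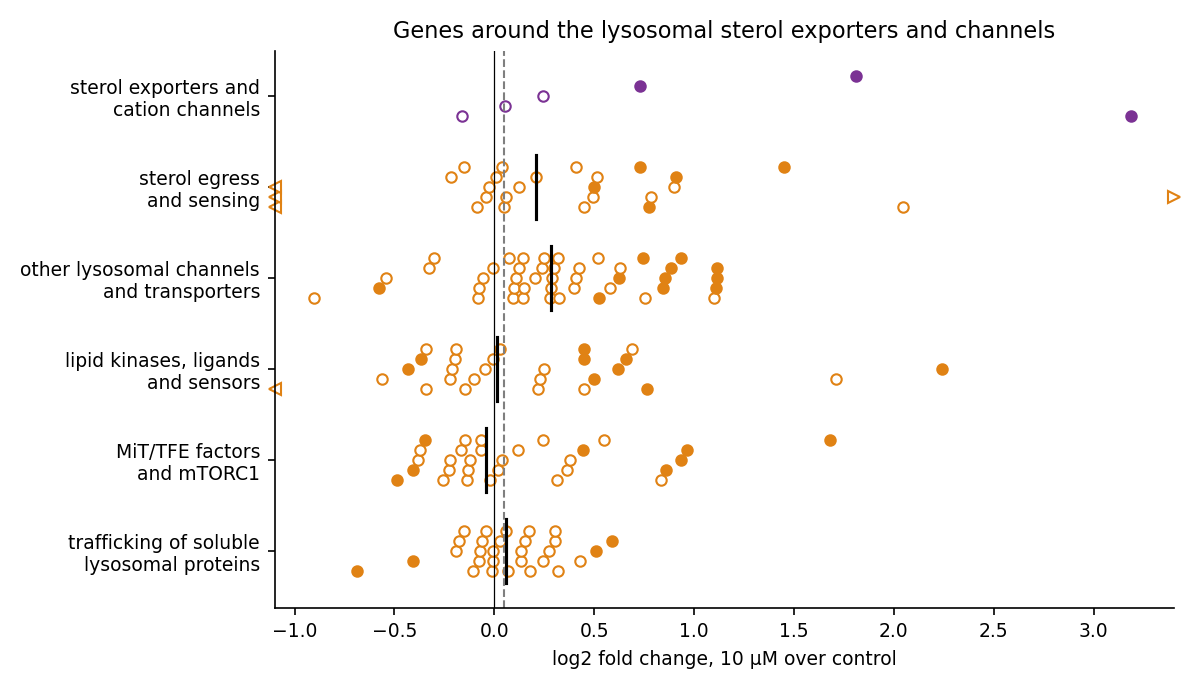
Log2 fold change of 10 µM over control (horizontal axis) for the 6 sterol exporter and channel genes tested (top row) and for the genes tested in 5 lists of related genes. Filled points passed an adjusted p of 0.05 in edgeR, black bars are list medians, the dashed line is the median of all genes, and triangles mark 5 low genes beyond the axis, none of them called. MCOLN3 and NPC2 lie at 3.19 and 1.81, to the right of most list genes, and the list of other channels and transporters has its median at 0.29.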

How the data were processed

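RNA-seq of 8 K562 libraries was used. The authors deposited raw counts, 1 whole number per gene and library with no normalization, per the file headers and values. The tools named in the submitters' processing notes are HISAT2, StringTie, bcl2fastq 2.0, limma and DESeq2, with hg38 as the build. Their roles and the counting settings are not given in the sources used here. Per the labels' protocols, ribosomal RNA was removed with probes and cDNA was made with random primers. With 2958 entries at 4 counts and 401 at 1 count, the low values do not step like single reads, and a count may stand for something other than 1 read. Entries with no gene name (9 lines) were dropped.

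Levels are CPM, count over total times TMM factor, times 1000000. Tests used edgeR 4.0.16 in R 4.3.3 (filterByExpr, TMM, quasi-likelihood, two-sided, Benjamini-Hochberg, threshold 0.05), in a fit of treated cells against controls and a fit with 3 dose levels. The scripts were tested on simulated counts. DESeq2 1.42.0 and limma 3.58.1 (voom), other scalings and filters, the replicate block, a term for library naming, and leaving out each library were alternatives. Summaries used Python 3.11.15, pandas 2.3.3 and SciPy 1.17.1. Gene positions and exon lengths came from GENCODE 29 (19029 of 19447 symbols matched).

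Treated and control libraries of the same number were taken as pairs. Their deviations from the group means, the treated mean being over both doses, correlated at 0.45, 0.25, 0.39 and 0.26 for numbers 1 to 4, over genes. With the mean at 10 µM alone, numbers 2 to 4 were at 0.13, 0.31 and 0.35, and treated 4 with control 1 was at 0.32. With the mean over both doses, libraries of unlike number correlated at -0.48 to 0.31, the highest being treated 3 with control 2, above the pair of number 2. Positive values between unlike numbers all joined libraries with the same kind of name, letter or digit. Pairing by number is therefore not fully separable from naming. The labels do not say what a shared number marks.

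The genes, lists, motifs and tests were chosen with earlier results of these data known. Named genes were all 7 members, per list the 4 genes of smallest p plus 10 set by name, and per gene tested the 3 others of highest correlation. The values of 1 gene so named are not reported here. MCOLN2 fell below the filter and was not tested in the main fits. An exact permutation test was run, but with a single value above 0 it can give only 1 as its p. Without the filter, MCOLN2 was not called in treated cells against controls (log2 fold change -4.27, edgeR adjusted p = 0.296). That value too rests on a single library above 0.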

Additional observations from a re-analysis of the deposited data

Results flagged for a closer look

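MCOLN2 stood out within the controls, where control 4 had 9 counts (0.099 CPM) and controls 1 to 3 had 0 counts. The gap of control 4 to the nearest of the others, as a share of the range of the group, was 1, above the 95% critical value of Dixon's test for 4 samples. All 4 treated libraries had 0 counts too. Chance alone flags about 1 group in 20, and a group of zeros with a single low count gives this share whenever it occurs.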

How the results depend on the processing

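The number of genes called in treated cells against controls (1855) was 3395 with DESeq2, 2815 with the replicate block and 3348 with library naming as a term, and ran from 64 (without control 3) to 3021 (without the 20 µM library) when single libraries were left out. Of the 6 genes tested, either 2 or 3 were called in each of the 16 alternatives. At 10 µM against control the number (2842) was 4657 with the block, 4665 with the naming term and 1364 to 3021 with a library left out, and 3 of the 6 genes were called throughout. A pair of values turned direction, both from results that were not called: MCOLN1 at 10 µM against control was -0.025 without control 2, and NPC2 at 20 µM against 10 µM was -0.20 with the block. The block left 1 of the 6 genes called between doses in place of 2, MCOLN1 being lost, and changed no other call among the 6 genes. NPC1 lost its call in treated cells against controls without any 1 of the 4 controls, and in those 4 analyses fewer genes were called in all (567, 149, 64 and 315 without controls 1 to 4). The cause of these changes was not tested. Counting each of the 6 genes under each alternative, 92, 95 and 88 values kept direction and side of the threshold in treated cells against controls, 10 µM against control and 20 µM against 10 µM. The median of all genes in treated cells against controls was 0.08 with TMM, 0.07 with relative log expression and 0.14 with upper-quartile scaling. With 1 library at 20 µM, no value at that dose has a replicate check, and MCOLN2 lies near the counting limit.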
